A study of Mus musculus with 12 samples.

Results

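The chloride intracellular channel (Clic) family was examined in the hypothalamus of C57/Bl6 mouse pups at postnatal day 6. The rows of the deposited count table named Clic1, Clic3, Clic4, Clic5 and Clic6 were taken, 5 of 43280 gene rows. Of these, 4 passed the filter on low counts that left 13104 genes for testing, and Clic3 did not. The family was chosen on the comparison described here: Clic1 had the smallest p-value of all genes lower after modified maternal separation (MMS), and the second smallest of all genes. Differences of the Clic genes between the groups are therefore given as a description, with no test, and the other members were taken for their names.

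The 6 MMS pups spent a session away from the dam each day up to postnatal day 6, during which repeated handling kept them lying on their backs on a warm pad. Within a litter males were assigned at random to control or MMS, and the 6 pups of each group were drawn at random from a larger cohort, so control and MMS libraries need not be littermates. Tissue was taken directly after the last session. How control pups were handled meanwhile is not described in the sources used here. The labels do not say which litter a library came from, so pups are treated as independent. Each pup gave 1 library, read from the 3′ end of the mRNA, so a molecule yields about 1 tag whatever its length. Control libraries held 3765759 to 6560620 counts and MMS libraries 3218777 to 5344080. All 14 markers of hypothalamic neurons listed for a check of the tissue were detected and passed the count filter, but not in every library. Agrp was at 0 CPM in MMS 2 and Nr5a1 at 0 CPM in MMS 4. In both libraries Pomc and Npy were below all controls, whereas Pmch was above all controls. On the first principal component of all genes MMS 2 scored 57.8 and MMS 4 46.3, far from the remaining 10 libraries (-14.4 to -3.04), so differences of the Clic genes and of the related genes and marker lists most touched by them are also given without them.

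CLIC proteins share the fold of glutathione transferases and occur both free in the cytosol and attached to membranes. They can form anion channels in artificial membranes, and in cells they are best known as partners of the cortical actin network through ezrin, radixin and moesin. CLIC1 is widespread and has been studied in microglia and tumour cells, CLIC4 is abundant in blood vessels and brain, and CLIC5 stabilises actin bundles in the hair cells of the ear. CLIC6 carries a long extension before the shared part and is a known gene of the choroid plexus epithelium.

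Because the members are paralogs, it was asked first whether their reads could be exchanged. On the mm10 genome, by the GENCODE annotation M21, Clic1 lies at chr17:35049966-35058749 on the plus strand and Clic5 on the same chromosome at chr17:44188584-44280172 on the plus strand. Clic3 lies at chr2:25456838-25458776 (plus strand), Clic4 at chr4:135213969-135272814 (minus strand) and Clic6 at chr16:92485736-92541243 (plus strand). All 5 reference transcripts have 6 exons. The coding lengths were 711 bases for Clic3, 723 for Clic1, 753 for Clic5, 759 for Clic4 and 1788 for Clic6. Over the aligned coding bases identity between pairs ran from 60.8% (Clic3 with Clic4 and with Clic6) to 72.2% (Clic4 with Clic5). The longest identical coding stretches are shown because they are the places where a short read could not be assigned. The longest, of 23 bases, was shared by Clic4 and Clic5 in exon 6 (chr4:135217161-135217183, minus strand, and chr17:44275296-44275318, plus strand). Clic1 shared at most 16 bases with another member, namely with Clic4 in exon 4 (chr17:35053106-35053121, plus strand, and chr4:135223482-135223497, minus strand). Capitals mark the identical run, with 10 bases on each side in lower case.
Clic4, with Clic5: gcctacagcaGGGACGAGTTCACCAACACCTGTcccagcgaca
Clic5, with Clic4: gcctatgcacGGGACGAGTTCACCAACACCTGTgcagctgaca
Clic1, with Clic4: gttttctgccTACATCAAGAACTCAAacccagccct
Clic4, with Clic1: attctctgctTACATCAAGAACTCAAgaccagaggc

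Reads of this assay come from near the end of the transcript, where the members were far less alike than in these coding stretches. In the last 300 bases the longest identical run between any pair was 7 to 9 bases. None of the 271 stretches of 30 bases in that window of a member occurred in an annotated transcript of another gene, for any of the 5 members. At these ends a sense read of 30 bases or more thus had an exact match in the transcripts of 1 annotated gene only. Inexact matches, the opposite strand and unannotated sequence were not searched.

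The members differed widely in abundance. Levels are in CPM, the counts of a gene scaled to a common library total, and, for 3′ tags, stand for molecules without a correction for length. In controls Clic4 measured 55.5 ± 14.6 CPM and Clic1 13.0 ± 4.20 CPM (SD, n = 6). Clic6 measured 6.16 ± 2.55 CPM, Clic5 2.77 ± 0.948 CPM and Clic3 0.395 ± 0.454 CPM (SD, n = 6). Clic4 thus stood at the 71.0th percentile of the genes tested, Clic1 at the 32.8th, Clic6 at the 16.5th and Clic5 at the 3.33rd.

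Neighbours in this order were compared within each control library on the log2 CPM scale. Clic4 lay above Clic1 by 2.08 ± 0.609 in 6 of 6 controls, and Clic1 above Clic6 by 1.05 ± 0.793 in 5 of 6 (SD, n = 6). No p-value is read for the pairs with Clic1, since the controls are one side of the contrast that chose it, although they count among the 4 pairs over which p-values were adjusted. Clic6 lay above Clic5 by 1.01 ± 0.626 in 5 of 6 controls, which was short of the threshold (exact sign-flip permutation test, two-sided, p = 0.0625; adjusted over 4 pairs 0.0625). Clic5 lay above Clic3 by 2.07 ± 0.876 in 6 of 6 (exact permutation p = 0.03125, the smallest that 6 libraries allow; adjusted 0.0625). The log2 values include a prior count of 2, which raises Clic3 (0 to 6 counts per control). This step is therefore smaller than the CPM means imply. The reversals came from single libraries: Clic6 exceeded Clic1 in Control 2, the control lowest in Clic1, and Clic5 exceeded Clic6 in Control 5, the control lowest in Clic6.

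Clic1, the member that the MMS comparison picked out, measured 12.5, 6.79, 14.9, 12.4, 11.7 and 19.6 CPM in controls 1 to 6. The values of MMS 1 to 6 were 4.92, 3.76, 8.48, 3.72, 5.69 and 6.44 CPM. All MMS libraries except MMS 3 lay below all controls, and all controls except Control 2 lay above all MMS libraries, so the groups overlapped through these libraries alone. Controls averaged 13.0 ± 4.20 CPM from 395 counts, and MMS libraries 5.50 ± 1.81 CPM from 133 counts (SD, n = 6 per group). The log2 fold change, MMS relative to control, was -1.26 (SE 0.26), which is 2.40-fold lower in MMS. Among all genes tested 1.56% had at least 5 of 6 MMS libraries below all controls, and 0.206% had a log2 fold change of -1 or less.

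The difference in Clic1 did not rest on the libraries that stood apart alone, although MMS 2 and MMS 4 held its lowest values. Without them its log2 fold change was -1.04 (SE 0.26), and on leaving out 1 library it ran from -1.42 (without MMS 3) to -1.10 (without Control 6). It was lower in MMS in all 18 alternative fits. Because Clic1 was chosen on these libraries, its sign in fits that share most of them was largely fixed in advance and is a description. The spread between pups was wider than counting error, with a coefficient of variation of 32.3% in controls and 32.8% in MMS, where counting alone gives 13.6% and 21.9%.

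**Figure D1:**
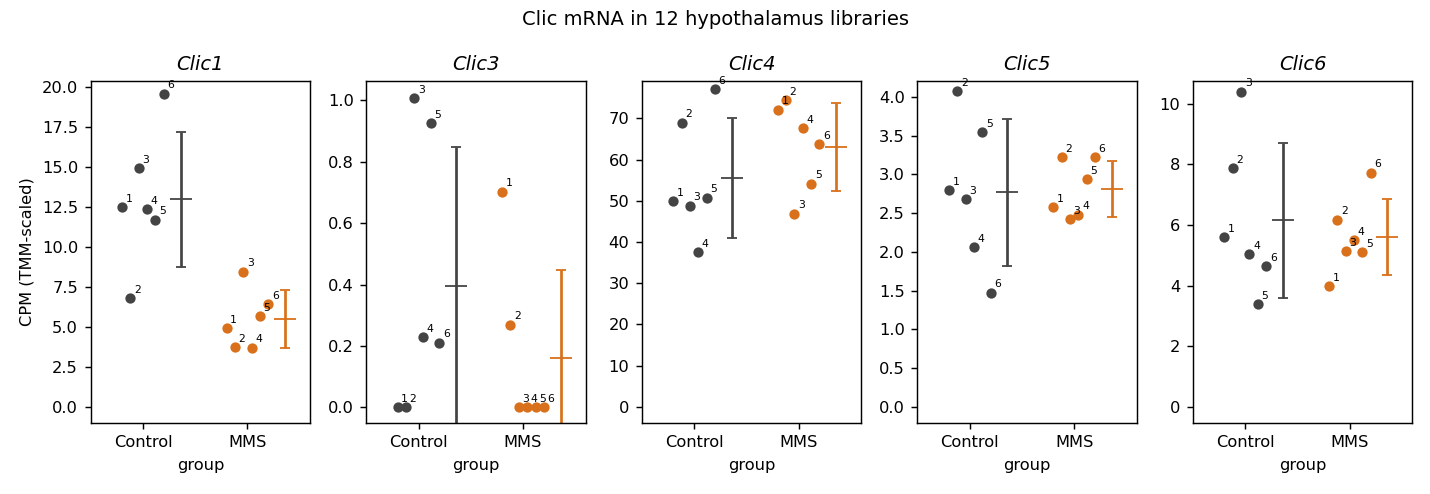
Levels of the 5 Clic genes in CPM (vertical axes, a separate scale for each gene) in control and MMS libraries. Points are libraries, numbered by replicate, and bars beside them give the mean ± SD (n = 6), cut at the axis for Clic3. For Clic1 the MMS libraries lie between 3.72 and 8.48 CPM and the controls between 6.79 and 19.6 CPM, while for the other members the groups overlap throughout.

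Clic4, the most abundant member, went slightly the other way. It measured 49.9, 69.0, 48.8, 37.6, 50.8 and 77.1 CPM in controls 1 to 6, and 72.1, 74.4, 46.9, 67.6, 54.1 and 63.8 CPM in MMS 1 to 6. No MMS library lay above all controls. The log2 fold change was 0.19 (SE 0.16), with 0.10 (SE 0.17) without MMS 2 and MMS 4, and leaving out 1 library gave 0.10 to 0.32. Its coefficient of variation was 26.3% in controls and 16.9% in MMS, well above the 6.27% and 6.40% of counting error, so this gene varied between pups of the same group.

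Clic5 and Clic6 were close to equal in the groups. Clic5 lay between 1.47 and 4.08 CPM in controls and between 2.42 and 3.22 CPM in MMS libraries, and all MMS values fell inside the control range. Its log2 fold change was 0.02 (SE 0.31), and it was below 0 in 4 of 18 alternative fits, with 0.01 (SE 0.39) without MMS 2 and MMS 4. With 7 to 23 counts per library its precision is set by counting: the coefficient of variation was 34.2% in controls and 13.0% in MMS, against 29.0% and 29.9% from counting alone. Control values of Clic6 were 5.60, 7.88, 10.4, 5.04, 3.39 and 4.63 CPM and MMS values 3.98, 6.18, 5.15, 5.50, 5.10 and 7.73 CPM in library order, with a log2 fold change of -0.14 (SE 0.28), or -0.18 (SE 0.32) without MMS 2 and MMS 4.

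Clic3 was barely detected, with 14 counts over the controls and 4 over the MMS libraries. Control 3 and Control 5 had 6 counts each, Control 4 and Control 6 had 1 each, and MMS 1 and MMS 2 had 3 and 1. The remaining 6 libraries had 0 counts, which allows a level of up to 0.532 to 0.966 CPM depending on the library (3 counts, counting error only). At this depth no difference between the groups was detectable for Clic3.

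Counted over the members, 0 of the 4 tested passed an adjusted p of 0.05 in edgeR, where 0% of all genes did, and 1 of 4 (Clic1) had an unadjusted p under 0.05, where 9.08% of all genes (1190) did. DESeq2 placed 1 of 4 past 0.05 after adjustment (7 genes of all tested) and limma-voom 0 of 4 (0 genes). The groups failed to overlap in 0 of 4 members and in 0.389% of all genes. Nothing is read from these counts, since the same contrast chose Clic1. Of the 4, 2 were lower in MMS, as were 49.9% of all genes.

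The sum over the family was nearly the same in the groups, at 77.8 ± 15.9 CPM in controls and 77.2 ± 9.72 CPM in MMS (SD, n = 6 per group). The shares within it follow from the choice of Clic1 and are a description. Clic1 supplied 7.74% to 21.6% of the Clic counts in controls and 4.28% to 13.5% in MMS, and Clic4 supplied 70.7% ± 5.87 and 81.4% ± 4.49 (SD, n = 6 per group). In controls Clic1 was the second most abundant member. In MMS it stood level with Clic6, with Clic6 higher in 3 of 6 libraries and a mean difference of 0.053 ± 0.508 (SD, n = 6) on the log2 scale.

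**Figure D2:**
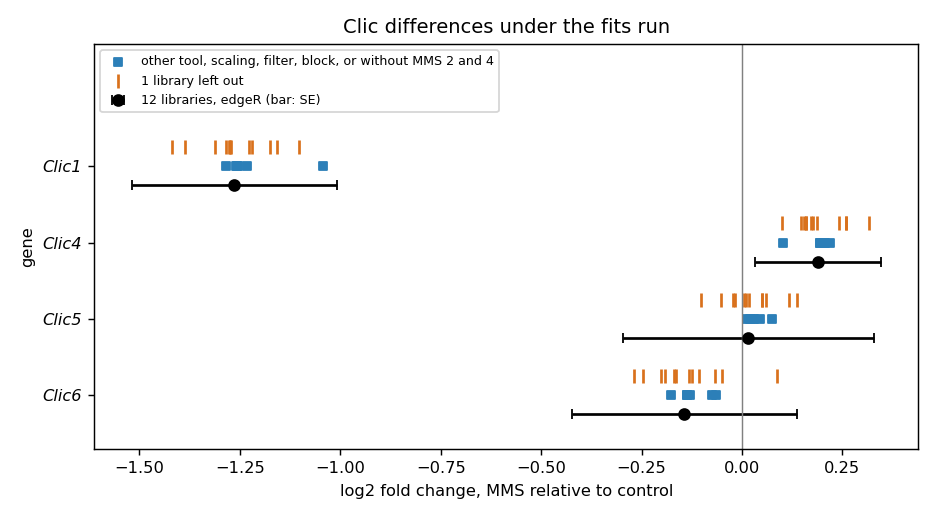
Log2 fold change of each tested Clic gene, MMS relative to control (horizontal axis), under the fits that were run. Black points with SE bars are the values over 12 libraries, squares the other tools, scaling, filter, block and the fit without MMS 2 and MMS 4, and ticks the fits without 1 library. Clic1 stays between -1.42 and -1.04, Clic4 above 0, and Clic5 and Clic6 lie on both sides of 0.

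The direction of Clic6 depended on 1 library. Control 3 had the highest Clic6 level, 10.4 CPM, against 3.39 to 7.88 CPM in the other 11 libraries, and without Control 3 the log2 fold change of Clic6 was 0.09. The same library stood far apart in choroid plexus markers, which summed to 1837 CPM there and to between 42.8 and 70.1 CPM in the other libraries. Of the 12 choroid plexus markers 10 were highest in Control 3. Ttr (transthyretin, the main secreted protein of this epithelium) reached 1735 CPM against at most 35.5 CPM elsewhere, and the folate receptor Folr1 11.9 CPM against at most 2.11 CPM. The prolactin receptor Prlr (10.6 CPM) was lower there than in any other library. Outside Control 3 the defining markers Folr1, Kcne2, Cldn2 and Aqp1 reached 0 CPM in at least 1 library. The part of choroid plexus tissue in the Clic6 level of Control 3 was not tested. In bulk tissue, moreover, fewer cells of a type and less RNA per cell cannot be told apart.

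Markers of other cell types were set beside Clic1. Of the 13 ependymal cilia markers in the table, 11 were tested and all 11 were lower in MMS, with 0 past the threshold. Without MMS 2 and MMS 4, 9 were lower and 2 higher (Tmem212 at 0.14 and Dynlrb2 at 0.25 on the log2 scale), and the median log2 fold change of the list was -0.26 in place of -0.74. Summed, they came to between 137 and 254 CPM in controls and between 32.5 and 248 CPM in MMS, lowest in MMS 2 (32.5 CPM) and next in MMS 4 (63.0 CPM). Of the 6 MMS libraries 3 lay below all controls. Meningeal and fibroblast markers summed to 224 to 453 CPM in controls and to 101 to 519 CPM in MMS, with 4 of 6 MMS libraries below all controls and 1 above them. Of the 9 tested 8 were lower in MMS, and 6 without MMS 2 and MMS 4. For red blood cell markers the ranges were 850 to 1534 CPM and 616 to 1499 CPM, with 3 of 6 MMS libraries below all controls. All 5 were lower in MMS, with and without MMS 2 and MMS 4. Endothelial markers summed to 266 to 303 CPM in controls and 212 to 310 CPM in MMS, with 4 of 6 MMS libraries below all controls and MMS 1 above them. Of these 12 markers 8 were lower and 4 higher in MMS, and 10 were lower and 2 higher without MMS 2 and MMS 4. Cldn5, a tight junction gene of the vessel wall, had the smallest p of the list, with 44.0 ± 4.61 CPM in controls and 29.1 ± 6.66 CPM in MMS (SD, n = 6 per group). Its log2 difference was -0.60 (SE 0.15; edgeR adjusted p = 0.385), or -0.51 without MMS 2 and MMS 4. Control and MMS ranges were 136 to 170 against 113 to 182 CPM for pericyte and smooth muscle markers and 246 to 317 against 238 to 314 CPM for microglial markers. For tanycyte markers they were 59.5 to 111 against 36.4 to 95.1 CPM, with 3 of 6 MMS libraries below all controls. Of the tested tanycyte markers 6 were lower and 1 higher in MMS, with and without MMS 2 and MMS 4. Of the microglial markers 8 were higher and 4 lower, or 7 and 5 without those libraries. Of the pericyte and smooth muscle markers 2 were higher and 4 lower, or 3 and 3 without them. No marker of these lists was at 0 in all libraries, and their part in the difference of Clic1 was not tested.

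**Figure D3:**
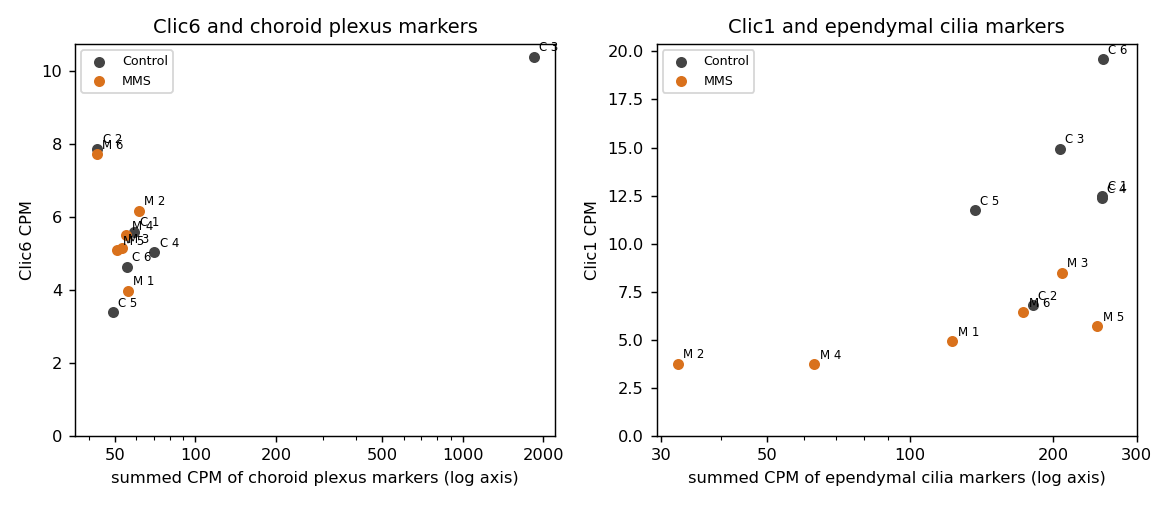
Clic6 against the summed choroid plexus markers (left) and Clic1 against the summed ependymal cilia markers (right), in CPM, with the marker sum on a log axis. Each point is a library (C, control; M, MMS). Control 3 lies far to the right at 1837 CPM of choroid plexus markers with the highest Clic6, and MMS 2 and MMS 4 hold the lowest ependymal sums (32.5 and 63.0 CPM) and the lowest Clic1.

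No relation between members within groups passed the threshold. Deviations from the group means were correlated over 10 libraries, without MMS 2 and MMS 4, for the 6 pairs of members and for each member with 9 marker scores, 42 relations in all. After adjustment 0 of 42 passed 0.05, and 2 had an unadjusted permutation p under 0.05. Clic1 with Clic5 had r = -0.76 (permutation p = 0.0294, adjusted 0.618) and rho = -0.59 (permutation p = 0.0960, adjusted 0.878). That relation rested on Control 2 and Control 6, the libraries with the lowest and the highest Clic1 among controls, since r was -0.20 without them. Clic4 with microglial markers had r = -0.77 (permutation p = 0.00865, adjusted 0.363), rho = -0.56 (permutation p = 0.112, adjusted 0.878), and r = -0.49 without Control 4 and MMS 3.

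Clic1 had r = 0.42 with ependymal cilia markers (permutation p = 0.216, adjusted 0.847; rho = 0.33, permutation p = 0.356, adjusted 0.878), and r = 0.36 without Control 5 and MMS 1. Over all 12 libraries, with MMS 2 and MMS 4, this r was 0.60 (permutation p = 0.0239, adjusted 0.482) and rho 0.73 (permutation p = 0.0155, adjusted 0.474), and r was 0.68 without MMS 2 and MMS 5. In the 6 controls r was 0.43 (permutation p = 0.387, adjusted 0.912). The ependymal list was not alone in this. With markers of hypothalamic neurons Clic1 had r = 0.43 over the 10 libraries (permutation p = 0.270, adjusted 0.847). Over all 12 that r was 0.62 (permutation p = 0.0459, adjusted 0.482), or 0.26 without Control 6 and MMS 3. With endothelial markers r over all 12 was -0.56 (permutation p = 0.0592, adjusted 0.497) and rho -0.70 (permutation p = 0.0226, adjusted 0.474).

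Clic1 had r = 0.51 with microglial markers (permutation p = 0.133, adjusted 0.847; rho = 0.36, permutation p = 0.347, adjusted 0.878), and r = 0.61 without Control 4 and MMS 3. With endothelial markers r was -0.47 (permutation p = 0.117, adjusted 0.847; rho = -0.48, permutation p = 0.197, adjusted 0.878), and r = -0.68 without MMS 1 and MMS 5. Clic6 had r = 0.32 with choroid plexus markers (permutation p = 0.470, adjusted 0.985; rho = -0.03, permutation p = 0.949, adjusted 1.0). Without Control 3 and Control 4 this r was -0.68, so its sign came from those libraries. The choroid plexus score covers only the 6 of 12 markers past the count filter. It includes Prlr and leaves out Folr1, Kcne2, Cldn2 and Aqp1.

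The genes whose deviations were most like those of Clic1 over the 10 libraries, among 13055 genes with a mean of at least 10 counts, were Immp1l, Rpl36a and Il17rc. Immp1l encodes a subunit of a mitochondrial inner membrane peptidase (r = 0.97), Rpl36a a ribosomal protein (r = 0.93) and Il17rc a receptor subunit for interleukin 17 (r = 0.91). As the highest of 13055 values these are a description. Over all 12 libraries r was 0.75, 0.82 and 0.40, so the likeness of Il17rc did not extend to MMS 2 and MMS 4. None of the 3 passed the threshold for MMS, with log2 fold changes of 0.14 (SE 0.15) for Immp1l, -0.26 (SE 0.13) for Rpl36a and 0.20 (SE 0.39) for Il17rc (edgeR adjusted p = 0.552 to 0.880).

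For Clic4 the most similar genes were Swap70 (r = 0.93), Arhgef11 (r = 0.92) and Fam111a (r = 0.92). Swap70 binds actin and Arhgef11 is an exchange factor for the GTPase RhoA. Over 12 libraries r was 0.93 for Arhgef11 and 0.87 for Fam111a, but 0.37 for Swap70. For Clic5 they were Ndufs1, a subunit of respiratory complex I (r = 0.90), Medag (r = 0.90) and Sapcd2 (r = 0.89), with 0.38, 0.54 and 0.89 over 12 libraries. For Clic6 they were BC003965 (r = 0.93), Gm14295 (r = 0.89) and Gm24276 (r = 0.88), with 0.73, 0.67 and 0.78 over 12 libraries.

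The gene next to Clic1 was of interest because of its position. Ddah2, named after enzymes that degrade methylated arginines, starts 285 bases beyond the end of Clic1 on the same strand (chr17:35059035-35062095). Its level was 178 ± 19.3 CPM in the control group against 145 ± 30.2 CPM after MMS (SD, n = 6 per group), a log2 difference of -0.30 (SE 0.13) that did not pass the threshold (edgeR adjusted p = 0.543). It was lowest in MMS 2 (99.7 CPM) and then MMS 4 (117 CPM), whereas MMS 5 (180 CPM) lay within the controls (153 to 204 CPM). On the other side Msh5, a meiotic recombination gene on the minus strand, was near the limit of detection at 1.03 ± 0.633 and 1.10 ± 0.565 CPM (SD, n = 6 per group).

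The neighbours of the other members ranged from barely detected to abundant, and none of those tested passed the threshold. Clic4 lies between Runx3 (0.0887 CPM in MMS, 0 in controls) and the pseudogene Gm12982, and Clic5 between Enpp4 (22.1 ± 4.62 CPM in controls; log2 fold change -0.09, SE 0.17; edgeR adjusted p = 0.881) and Runx2. Clic6 lies between Rcan1, a calcineurin inhibitor (66.4 ± 11.4 CPM in controls; 0.13, SE 0.13; edgeR adjusted p = 0.749), and Runx1. A transcript on the same strand, 2410124H12Rik, overlaps the start of Clic6 and had under 0.1 CPM. Clic3 lies 8297 bases from Abca2 (log2 fold change 0.01, SE 0.12; edgeR adjusted p = 0.982) and 7932 bases from Ptgds, a prostaglandin synthase of the meninges and choroid plexus. Ptgds varied widely within both groups, with 49.5 to 944 CPM in controls and 23.6 to 1871 CPM in MMS libraries.

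Genes of related function were compared next. Of the listed partners of CLIC proteins at the cortex (ezrin, radixin, moesin, their scaffolds and actin regulators), 17 were tested, 7 higher and 10 lower in MMS, and 0 passed an edgeR adjusted p of 0.05. At an unadjusted p under 0.05 there was 1 in each direction, 2 of 17 where 9.08% of all genes passed. The median log2 fold change was -0.05, near the median of all genes (0.00091). Without MMS 2 and MMS 4 it was 0.0022, and 6 of the 17 changed sign. The lower of the pair was Msn (moesin, which links the membrane to actin), at 48.6 ± 6.91 CPM in the control group against 23.5 ± 13.8 CPM after MMS (SD, n = 6 per group). That is a log2 difference of -1.06 (SE 0.32), short of the threshold (edgeR adjusted p = 0.543). The levels of Msn were 30.7, 11.3, 14.2, 8.87, 33.5 and 42.2 CPM in MMS 1 to 6, and only MMS 6 reached the control range of 36.7 to 57.4 CPM. Without MMS 2 and MMS 4 its log2 fold change was -0.68 (SE 0.20).

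The higher of the pair was Tprn, which encodes taperin, a partner of CLIC5 at the base of hair cell stereocilia. Its level was 6.02 ± 1.36 CPM in the control group against 9.60 ± 1.82 CPM after MMS (SD, n = 6 per group), and the groups did not overlap (4.52 to 7.80 against 7.87 to 12.9 CPM), as in 0.389% of all genes. The log2 difference of 0.68 (SE 0.22) did not pass the threshold (edgeR adjusted p = 0.543) and was 0.56 (SE 0.25) without MMS 2 and MMS 4. Rhoa, a GTPase that controls actin, had -0.42 (SE 0.23; edgeR adjusted p = 0.584). Its MMS 2 and MMS 4 values were 208 and 195 CPM, against 385 to 515 CPM in the other MMS libraries, and its log2 fold change was -0.11 without them. The closest relatives of moesin differed less, with -0.23 (SE 0.24) for Ezr and -0.09 (SE 0.12) for Rdx (edgeR adjusted p = 0.758 and 0.804). Ezr turned to 0.05 (SE 0.15) without MMS 2 and MMS 4, where it stood at 15.6 and 27.8 CPM against 40.5 to 53.9 CPM in the other MMS libraries, and Rdx was -0.11 (SE 0.12).

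Among the other chloride and anion channels 19 genes were tested, 11 higher and 8 lower in MMS, and 0 passed the threshold. At an unadjusted p under 0.05 there were 2 higher and 1 lower, 3 of 19 where 9.08% of all genes passed. The median log2 fold change was 0.05, or 0.01 without MMS 2 and MMS 4, where 3 of the 19 changed sign. Lrrc8c, a subunit of volume-regulated anion channels, had -0.32 (SE 0.14), from 73.2 ± 9.23 CPM in controls and 58.9 ± 13.6 CPM in MMS (SD, n = 6 per group; edgeR adjusted p = 0.543), and -0.18 (SE 0.13) without MMS 2 and MMS 4. Vdac2, a porin of the mitochondrial outer membrane, had 0.28 (SE 0.11; edgeR adjusted p = 0.543), with its highest values in MMS 2 (224 CPM) and MMS 4 (250 CPM) and 0.17 without them. Ttyh3, of the tweety family, had -0.26 (SE 0.18; edgeR adjusted p = 0.641). This difference rested on MMS 2 and MMS 4, at 310 and 331 CPM against 420 to 685 CPM in the other MMS libraries, since it was -0.017 (SE 0.11) without them. Clcn3, another gene of this list, stood at 285 ± 20.4 CPM in the control group and 285 ± 41.1 CPM after MMS (SD, n = 6 per group).

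Relatives that share the glutathione transferase fold gave 20 tested genes, 13 higher and 7 lower, with 0 past the threshold, and 3 higher and 0 lower at an unadjusted p under 0.05, 3 of 20 where 9.08% of all genes passed. The median log2 fold change was 0.05, or 0.06 without MMS 2 and MMS 4, where 6 of the 20 changed sign. Gstt3 had -0.45 (SE 0.30) and Mtx2, a part of the mitochondrial import and sorting machinery, 0.41 (SE 0.15), with edgeR adjusted p-values of 0.632 and 0.543. Gstt3 was -0.12 (SE 0.25) without MMS 2 and MMS 4, which held its lowest values (1.61 and 5.32 CPM, against 6.12 to 10.6 CPM in the other MMS libraries). In MMS 2 and MMS 4 the level of Mtx2 was 107 and 94.4 CPM, against 59.0 to 63.3 CPM in the other MMS libraries, and without those its log2 fold change was 0.13. Gstp2 had 0.35 (SE 0.37; edgeR adjusted p = 0.765), and 0.63 (SE 0.39) without those libraries, but it has a near-identical copy in Gstp1, so its counts are uncertain. Gsto1, of the omega class that is closest in structure to the CLIC proteins, stood at 60.2 ± 5.54 CPM in the control group and 71.8 ± 12.3 CPM after MMS (SD, n = 6 per group; log2 difference 0.25, SE 0.12; edgeR adjusted p = 0.544).

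**Figure D4:**
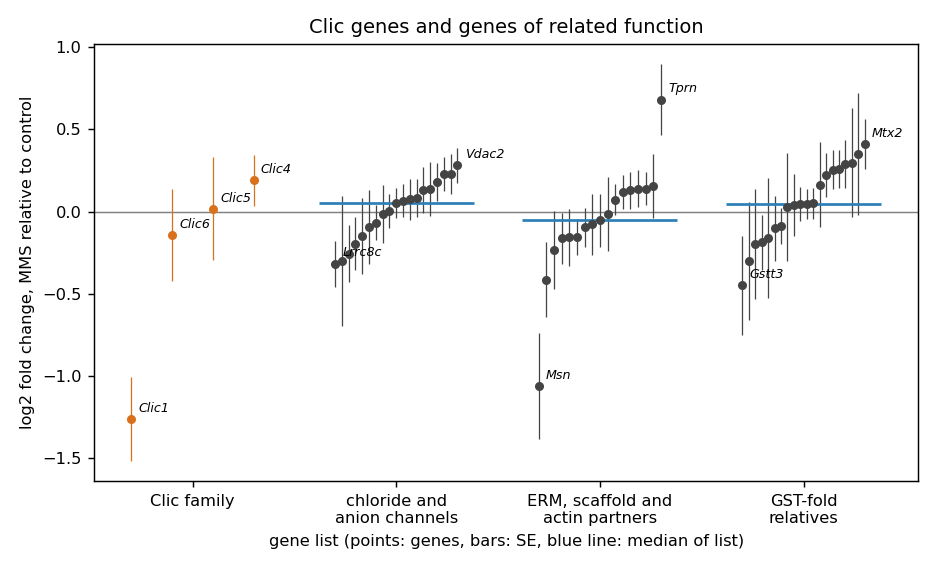
Log2 fold change, MMS relative to control (vertical axis), of the tested Clic genes and of the 3 lists of related genes. Points are genes with SE bars and blue lines are list medians (0.05, -0.05 and 0.05). Clic1 at -1.26 and Msn at -1.06 lie lowest, and 0 genes of the 3 lists passed an edgeR adjusted p of 0.05.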

How the data were processed

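Hypothalamic RNA of 12 pups was made into QuantSeq 3′ libraries and sequenced on an Ion Proton by the authors, who aligned reads to mm10 in Torrent Suite 5.2.0 and deposited raw counts per gene, not normalized and not pooled. No source used here names the counting tool, its strand setting or the annotation. Members and lists were chosen with earlier results of these data known. Libraries were grouped by title. Within groups, 30 pairs of libraries differed beyond sampling noise (chi-square per degree of freedom 4.04 to 31.5). The test was quasi-likelihood in edgeR 4.0.16, run under R 4.3.3 (robust, TMM scaling, default filter with a minimum count of 10 and a total of 15; two-sided, Benjamini-Hochberg over 13104 genes, threshold 0.05), which was tested on simulated data. Level comparisons and correlations used log2 CPM with a prior count of 2, the correlations with 100000 permutations within groups. A marker score is the mean of its tested genes' log2 CPM, each scaled to an SD of 1 over the libraries. Sequences come from the GENCODE M21 transcripts, aligned with Biopython 1.88. P-values set differences and correlations against the spread between pups, which were treated as independent. Alternatives were DESeq2 1.42.0, limma-voom 3.58.1, DESeq2 size factors in edgeR, no count filter, the replicate number as a block, and leaving out libraries. Named genes were the members, their nearest neighbours with counts, the 3 genes most like each, and in each related list the 3 largest changes among genes with a mean of at least 10 counts. In each marker list the most abundant gene was to be named. Folr1, Kcne2, Cldn2, Aqp1, Prlr, Ezr, Rdx, Clcn3, Gsto1, Tmem212, Dynlrb2, Cldn5, Agrp, Nr5a1, Pomc and Npy were named after their values were seen.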

Additional observations from a re-analysis of the deposited data

Results flagged for a closer look

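Of 28 sets of 6 values (the members and the marker sums in each group), 3 held a library whose gap to the next, divided by the range of the group, was over 0.625. About 1.4 such sets are given by chance. All were marker sums in controls and none was a Clic gene. Choroid plexus markers summed to 1837 CPM in Control 3 against 42.9 to 70.1 CPM in the other controls, where Clic6 was also highest, and Clic6 is the member known from that tissue. Microglial markers summed to 317 CPM in Control 4 against 246 to 271 CPM in the other controls. Cx3cr1, the microglial fractalkine receptor, was at 84.8 CPM there against at most 65.5 CPM elsewhere. Of the 12 microglial markers, however, 2 were highest in Control 4 and 4 in MMS 3, where they summed to 314 CPM. Control 4 was the control lowest in Clic4 (37.6 CPM). Markers of hypothalamic neurons summed to 2220 CPM in Control 6 against 1287 to 1554 CPM in the other controls. Control 6 was the control highest in Clic1 (19.6 CPM) and Clic4 (77.1 CPM). Of the 14 neuron markers 2 were highest in Control 6 and 5 in MMS 3, where they summed to 2112 CPM. MMS 3 was the MMS library highest in Clic1 (8.48 CPM) but lowest in Clic4 (46.9 CPM). The part of these markers in the Clic levels was not tested.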

How the results depend on the processing

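Over the 18 alternative fits the log2 fold changes of Clic1 and Clic4 kept their sign (-1.42 to -1.04 and 0.10 to 0.32). For Clic1 this was largely fixed by its choice on the same libraries. Clic5 ran from -0.10 to 0.14 and Clic6 from -0.27 to 0.09, the latter above 0 only without Control 3. The replicate numbers were not shown to pair the samples. Deviations of same-numbered libraries had correlations of -0.05 to 0.12, and 2 of 6 numbers were best matched by their own. The labels name no litters, so this check cannot decide whether the numbers stand for pairs. With the replicate block Clic1 was -1.23, and 1 gene passed an adjusted p of 0.05. The number of genes past it was 0 in edgeR, 7 in DESeq2, 1 without a count filter and 5 without MMS 2 and MMS 4, and 0 to 1 on leaving out 1 library, with 1 on leaving out either MMS 2 or MMS 4. Genes at an unadjusted p under 0.05 numbered 2039 without a filter, 674 without MMS 2 and MMS 4, and 700 (without MMS 2) to 1804 (without MMS 5) on leaving out 1 library, with 707 without MMS 4. The cause was not tested. In the MMS libraries the steps between neighbours were 3.46 (Clic4 over Clic1), 0.88 (Clic6 over Clic5) and 2.54 (Clic5 over Clic3) on the log2 scale, each in all 6 libraries where controls had 5 or 6, and -0.053 for Clic1 over Clic6. The step over Clic3 is again lowered by the prior count. Of 42 correlations 0 passed over all 12 libraries and 0 over the 6 controls. A count added after seeing the data gave ependymal markers lower in MMS as 11 with all libraries and 9 without MMS 2 and MMS 4. Depth limits Clic3 (18 counts) and Clic5 (153 counts).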

Other observations

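The most abundant marker of each remaining list was taken as a check of the tissue. Pmch, the melanin-concentrating hormone of lateral hypothalamic neurons, ranged from 195 to 500 CPM in controls and from 246 to 929 CPM in MMS, the highest being MMS 4. Foxj1, the transcription factor of motile cilia, ranged from 29.3 to 68.0 CPM in controls and from 8.33 to 61.8 CPM in MMS. Kdr, an endothelial receptor for VEGF, ranged from 46.8 to 67.1 and from 30.5 to 64.1 CPM, and Rgs5 of pericytes from 78.4 to 103 and from 70.6 to 107 CPM. Igf2, made by meninges and choroid plexus, ranged from 107 to 199 and from 42.8 to 224 CPM, and the globin gene Hbb-bs from 459 to 813 and from 321 to 766 CPM. Hemoglobin genes have near-identical copies, so that value is uncertain. Crym, a thyroid hormone binding protein found in tanycytes, ranged from 11.7 to 45.7 CPM in controls and from 6.44 to 26.3 CPM in MMS. The groups overlapped for all of these genes.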
